A study of Arabidopsis thaliana with 6 samples.

Results

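The genes described here encode receptors at the cell surface that detect microbial or damage-derived molecules, together with the kinases that act directly with them. They were chosen by name, through their TAIR gene identifiers, as 10 genes: FLS2 (AT5G46330), EFR (AT5G20480), PEPR1 (AT1G73080), PEPR2 (AT1G17750), LYK5 (AT2G33580), CERK1 (AT3G21630), BAK1 (AT4G33430), SOBIR1 (AT2G31880), BIR1 (AT5G48380) and BIK1 (AT2G39660). Of the 10 genes, 9 had a locus in the deposited table, and BIR1 had 2, so the genes were covered by 10 of the 32424 loci. PEPR1 had no entry and was not analysed here.

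Plants recognise conserved microbial molecules with receptor kinases in the plasma membrane that bind a peptide or a sugar polymer on the outside of the cell. A bound receptor pairs with a co-receptor kinase, and the pair passes phosphorylation on to receptor-like cytoplasmic kinases, which act on targets such as the NADPH oxidase RBOHD. Adaptor and inhibitor kinases at the membrane, and ubiquitin ligases in the cytoplasm, set how much of this signalling is available and how long it lasts.

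Whole wild-type seedlings of the Col-0 accession of Arabidopsis thaliana were sampled after 1 h in liquid half-strength MS medium with 1% sucrose. The first group had received 100 µM NAE 18:3, N-linolenoylethanolamine, the fatty acid amide of linolenic acid and ethanolamine (3 libraries). The other group had received DMSO, the solvent, at 0.07% (3 libraries), and the labels do not give the share of DMSO in the NAE 18:3 medium. The labels describe the libraries as biological replicates from 4-day-old seedlings, while their growth text gives an age of 3 days at transfer. No transgene or mutant was involved. The comparison asks how transcript levels stand shortly after this compound is given.

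Levels are FPKM, read fragments divided by transcript length and by library size, so they can be set against each other between genes. Loci that averaged 1 FPKM or more across the 6 libraries, 18194 in number, were tested with limma on log2(FPKM + 1). A locus was called at a Benjamini-Hochberg adjusted p under 0.05 over all tested loci. Every log2 change given is NAE 18:3 minus DMSO on that scale, which understates the change of genes near 0. Calls were common in this comparison, with 44.1% of tested loci called higher and 39.2% called lower. FPKM summed over all loci ran from 991483 to 1140300 in the NAE 18:3 libraries and from 688025 to 866221 in the DMSO libraries. The absolute depth is unknown. Depth relative to the first NAE 18:3 library was estimated from the most common ratio of low FPKM values at loci with 1 transcript. The estimates were 0.987 and 1.27 in the other NAE 18:3 libraries and 0.482, 0.752 and 0.968 in the DMSO libraries. Of the loci compared, 23.2% to 28.2% lay within 1% of that ratio.

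All 10 loci of the receptor and kinase genes were tested, and SOBIR1 met the level filter through its NAE 18:3 libraries alone. After NAE 18:3, 9 of the 10 loci were called higher and 0 were called lower, beside 44.1% and 39.2% of all tested loci. The remaining locus, PEPR2, was not called. Without SOBIR1, which had to differ to enter the test, 8 of 9 loci were called higher. The NAE 18:3 and DMSO libraries did not overlap at 9 of the 10 loci, where 84.6% of all tested loci did not overlap in either direction. A call as such was thus close to the background, while the size of the changes was further from it: 8 of the 10 loci were higher by at least 2-fold on the log2(FPKM + 1) scale, against 18.4% of all tested loci. Without SOBIR1 this was 7 of 9. The median log2 change over the 10 loci was 1.39, against 0.06 over all other tested loci. It was 1.3 without SOBIR1, and 1.48 over 9 loci when SOBIR1 and BIR1 were each taken as the sum of the 2 loci given with them here. With the libraries brought to 1 upper quartile, 32.2% of all tested loci were called higher and 52.2% lower, while 9 of the 10 loci were still called higher. On that scale the count higher by at least 2-fold was 5 of the 10 loci, or 4 of 9 without SOBIR1, beside 2356 of the 18184 other tested loci. After quantile normalization the background was 39.8% higher and 42.6% lower, and all 10 loci were called higher.

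**Figure D1:**
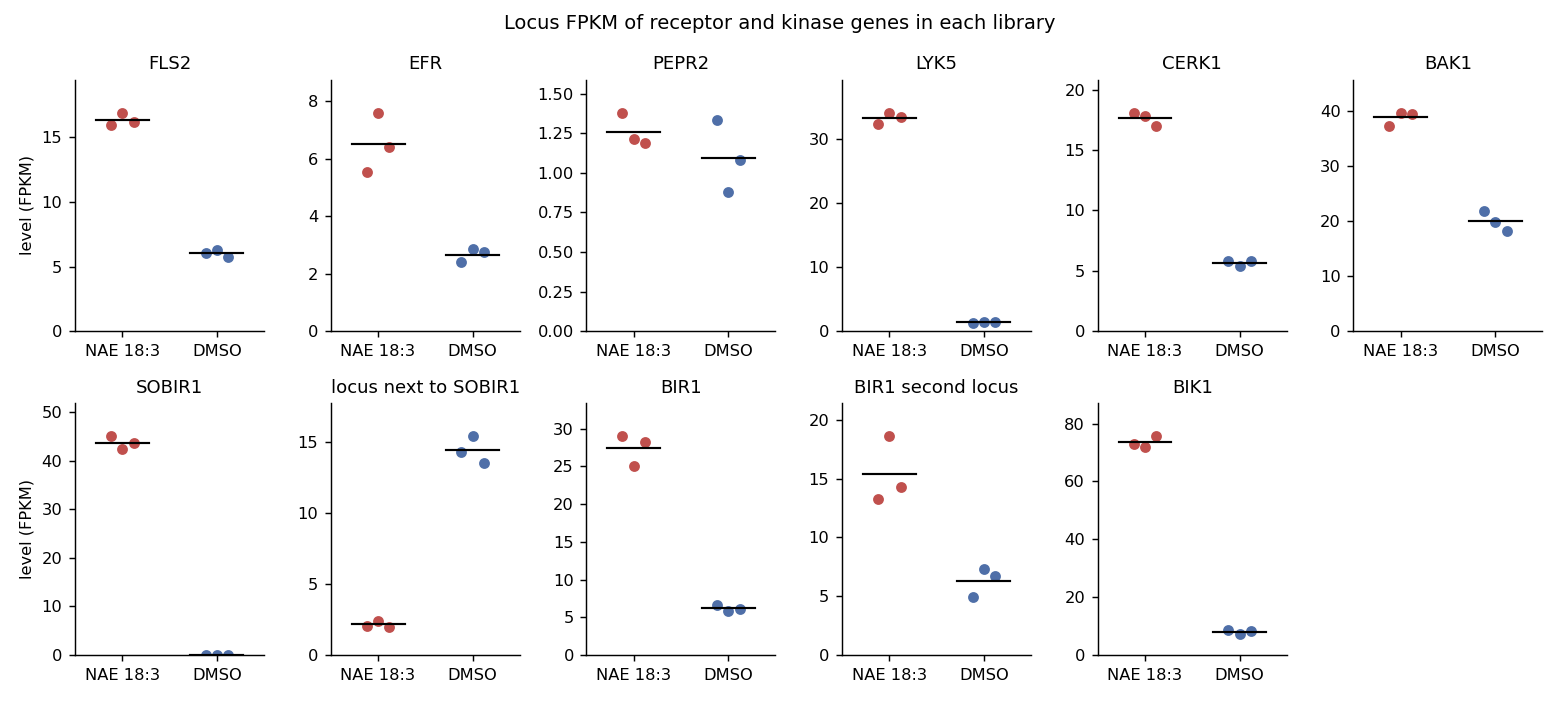
Level in FPKM (vertical axis, from 0, its own scale in each panel) of each receptor or kinase locus and of the locus numbered next to SOBIR1, with NAE 18:3 libraries on the left and DMSO libraries on the right of each panel. Points are libraries and bars are group means. The groups are apart in every panel except that of PEPR2, SOBIR1 lies at 0 in DMSO, and the locus next to it is the panel in which DMSO is higher.

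Among the receptors that bind the ligand, FLS2 is the receptor of bacterial flagellin and EFR that of the bacterial elongation factor EF-Tu. FLS2 had 15.9, 16.9 and 16.2 FPKM in the NAE 18:3 libraries, against 6.04, 6.25 and 5.74 FPKM in the DMSO libraries. Every NAE 18:3 library lay above every DMSO library, at 16.3 ± 0.517 FPKM after NAE 18:3 and 6.01 ± 0.26 FPKM after DMSO (SD, n = 3 each), a ratio of means of 2.71. Its log2 change of 1.3 had a standard error of 0.06 and a 95% interval of 1.17 to 1.44 (limma, Benjamini-Hochberg adjusted p = 6e-08). As these are whole seedlings, fewer cells of a type and less RNA per cell cannot be told apart, here or at any later value.

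EFR had 5.55, 7.61 and 6.41 FPKM after NAE 18:3, against 2.4, 2.86 and 2.74 FPKM after DMSO. The groups did not overlap, although the spread among the NAE 18:3 libraries was wider than for FLS2. The means were 6.52 ± 1.03 FPKM after NAE 18:3 and 2.66 ± 0.237 FPKM after DMSO (SD, n = 3 each), and the log2 change was 1.03 with an interval of 0.77 to 1.29 (limma adjusted p = 2.8e-05). On the FPKM as deposited, both bacterial receptors thus rose, by 2.71-fold for FLS2 and 2.45-fold for EFR. After upper-quartile scaling the log2 changes were smaller, at 0.99 for FLS2 and 0.75 for EFR (limma adjusted p = 4.5e-07 and 0.00024). After quantile normalization they were 1.22 and 1.18.

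PEPR2, a receptor of the plant's own Pep peptides, is the exception among these genes. It had 1.38, 1.21 and 1.19 FPKM after NAE 18:3, against 1.33, 0.877 and 1.08 FPKM after DMSO. The groups overlapped, and the log2 change of 0.11 had an interval of -0.18 to 0.40 (limma adjusted p = 0.42), so on this scale a rise of more than 0.40 or a fall of more than 0.18 lies outside the interval. Its level stands just above the filter of 1 FPKM, and its direction followed the scaling of the libraries: the log2 change was -0.08 after upper-quartile scaling and 0.46 after quantile normalization, the second of which passed the threshold (limma adjusted p = 0.0094).

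LYK5 is a LysM receptor kinase that binds the fungal cell wall polymer chitin. It had 32.4, 34.2 and 33.5 FPKM after NAE 18:3, against 1.26, 1.49 and 1.38 FPKM after DMSO. In DMSO it stood beside PEPR2 near the bottom of these genes, and after NAE 18:3 it stood above FLS2, EFR and CERK1. The means were 33.4 ± 0.946 FPKM after NAE 18:3 and 1.38 ± 0.115 FPKM after DMSO (SD, n = 3 each), a ratio of 24.2. Its log2 change of 3.85 (interval 3.71 to 4.00, limma adjusted p = 1.9e-10) was above that of 99% of the tested loci.

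CERK1, the LysM kinase with which LYK5 pairs in chitin signalling, had 18.1, 17.8 and 17 FPKM after NAE 18:3, against 5.81, 5.41 and 5.82 FPKM after DMSO. The libraries of each group lay close together and far from those of the other. The means of 17.6 ± 0.541 FPKM after NAE 18:3 and 5.68 ± 0.235 FPKM after DMSO (SD, n = 3 each) gave a log2 change of 1.48 with an interval of 1.35 to 1.61 (limma adjusted p = 2.5e-08).

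BAK1 is the co-receptor kinase that joins FLS2, EFR and the PEPRs once their ligand is bound. It had 37.4, 39.8 and 39.5 FPKM after NAE 18:3, against 21.9, 19.9 and 18.3 FPKM after DMSO. It was the most abundant of these genes in DMSO, and of the loci called higher it had the smallest log2 change. The means were 38.9 ± 1.32 FPKM after NAE 18:3 and 20.0 ± 1.82 FPKM after DMSO (SD, n = 3 each), and the log2 change was 0.93 with an interval of 0.78 to 1.08 (limma adjusted p = 1.4e-06). This change was 0.59 both after upper-quartile scaling and after quantile normalization.

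SOBIR1 is the adaptor kinase that receptor-like proteins without a kinase domain use for signalling. Its locus had 45.1, 42.5 and 43.7 FPKM after NAE 18:3 and was listed at 0 in all 3 DMSO libraries. Whether a value of 0 in this table stands for absent RNA or for a missing estimate was not tested. As many as 130 of 130 chloroplast-encoded loci were listed at 0 in all 6 libraries. SOBIR1 was 1 of 7 loci that were at 0 in all DMSO libraries and at 10 FPKM or more in all NAE 18:3 libraries. Its fitted log2 change was 5.48 (limma adjusted p = 4.2e-11), and 8.78 with a pseudocount of 0.1, so the size was set by the pseudocount, and no fold is given against libraries listed at 0.

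A second locus bears on SOBIR1. The locus numbered directly after it lies in the same run of loci, in which 18 of 19 neighbours are annotated on the strand of SOBIR1. It carried the identifier AT2G31890, a gene that overlaps SOBIR1 in the TAIR10.1 annotation and is annotated on the opposite strand, where the table held a separate AT2G31890 locus. The locus next to SOBIR1 had 2.05, 2.42 and 1.97 FPKM after NAE 18:3, against 14.3, 15.4 and 13.5 FPKM after DMSO. It was thus lower after NAE 18:3, opposite to SOBIR1. The separate AT2G31890 locus had 9.31, 8.57 and 8.65 FPKM after NAE 18:3 and 10.2, 9.92 and 10.0 FPKM after DMSO.

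Whether reads of SOBIR1 were counted at that next locus was not tested, since strand is not stated for these libraries and overlapping genes cannot be told apart. With both loci added up, the sum was 47.1, 44.9 and 45.7 FPKM after NAE 18:3, against 14.3, 15.4 and 13.5 FPKM after DMSO. The sum was higher in every NAE 18:3 library, by a ratio of means of 3.19 and a log2 change of 1.61 (standard error 0.05, limma adjusted p = 1.1e-08). FPKM of separately assembled loci add up only roughly. SOBIR1 was called higher on either reading, while its log2 change was 5.48 on its own locus and 1.61 on the sum.

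BIR1 is a receptor-like kinase that binds BAK1 and restrains cell death signalling through SOBIR1. The BIR1 locus on the annotated strand had 29, 25 and 28.3 FPKM after NAE 18:3, against 6.59, 5.79 and 6.11 FPKM after DMSO. The groups were well apart, with means of 27.5 ± 2.15 FPKM after NAE 18:3 and 6.16 ± 0.403 FPKM after DMSO (SD, n = 3 each) and a log2 change of 1.99 with an interval of 1.82 to 2.15 (limma adjusted p = 1.7e-08).

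The second BIR1 locus lay among 20 neighbours that were all annotated on the other strand. It had 13.3, 18.6 and 14.3 FPKM after NAE 18:3, against 4.93, 7.34 and 6.67 FPKM after DMSO. It too was higher in every NAE 18:3 library, with a log2 change of 1.17 (interval 0.82 to 1.51, limma adjusted p = 9.1e-05). Its share of the FPKM of both BIR1 loci was 31.4%, 42.7% and 33.6% after NAE 18:3 and 42.8%, 55.9% and 52.2% after DMSO. Both loci together had 42.9 ± 0.68 FPKM after NAE 18:3 and 12.5 ± 0.85 FPKM after DMSO (SD, n = 3 each), and their sum gave a log2 change of 1.70 (limma adjusted p = 7.5e-09).

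BIK1 is the receptor-like cytoplasmic kinase that BAK1-containing complexes release and that phosphorylates RBOHD. It had 73.0, 72.0 and 75.6 FPKM after NAE 18:3, against 8.58, 7.3 and 8.1 FPKM after DMSO. It was the most abundant of these genes after NAE 18:3, and in DMSO it was below BAK1 in every library. The means were 73.6 ± 1.85 FPKM after NAE 18:3 and 7.99 ± 0.648 FPKM after DMSO (SD, n = 3 each), a ratio of 9.2, and the log2 change was 3.05 with an interval of 2.92 to 3.19 (limma adjusted p = 4e-10).

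**Figure D2:**
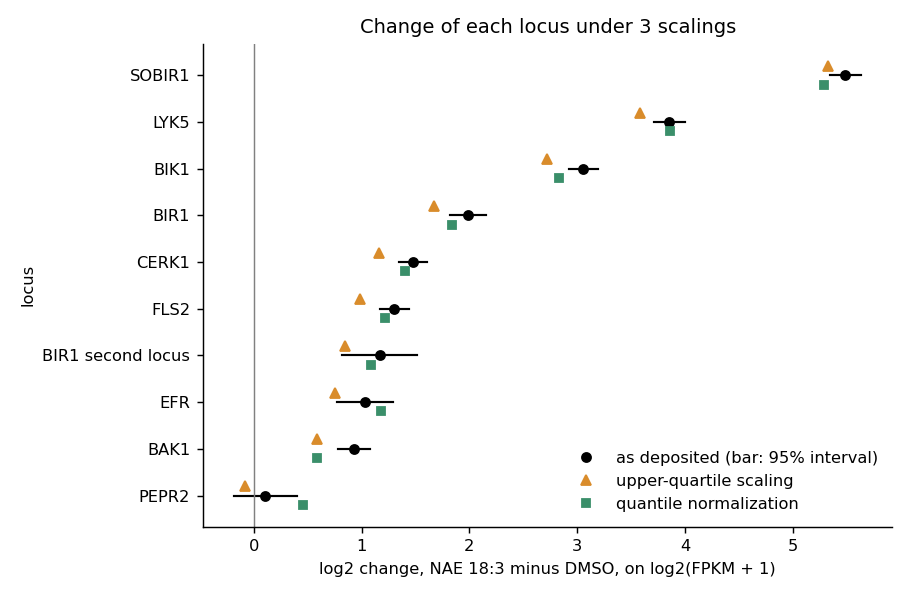
Log2 change with its 95% interval for each receptor and kinase locus (horizontal axis, NAE 18:3 minus DMSO on log2(FPKM + 1)) on the FPKM as deposited, and the log2 change after upper-quartile scaling and after quantile normalization. LYK5 and BIK1 stand at 3.85 and 3.05, PEPR2 alone reaches 0, and the position of SOBIR1 depends on the pseudocount because its DMSO libraries are listed at 0.

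The order of the levels differed between the groups. After NAE 18:3 it ran BIK1, SOBIR1, BAK1, LYK5, BIR1, CERK1, FLS2, the second BIR1 locus, EFR and PEPR2, and of these neighbours only FLS2 and the second BIR1 locus overlapped over their libraries. In DMSO it ran BAK1, BIK1, the second BIR1 locus, BIR1, FLS2, CERK1, EFR, LYK5 and PEPR2. SOBIR1 was given no place in DMSO, where it is listed at 0 and where its sum with the next locus averaged 14.4 FPKM. In DMSO the neighbours from BIK1 to CERK1, with means of 5.68 to 7.99 FPKM, overlapped, as did LYK5 with PEPR2. BIK1, at 7.3 to 8.58 FPKM, overlapped with the second BIR1 locus but lay above BIR1, FLS2 and CERK1 in every library. The second BIR1 locus, BIR1, FLS2 and CERK1 all overlapped with each other and had no clear order.

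Because FPKM is scaled by length, the balance of a pair of genes can be followed within each library as a ratio. Scaling whole libraries by a factor cannot move such a ratio. Of 5 planned ratios, 3 could be formed, since PEPR1 had no entry and SOBIR1 had values of 0. The LYK5 to CERK1 ratio was 1.79, 1.92 and 1.97 after NAE 18:3, against 0.217, 0.276 and 0.237 after DMSO. The chitin receptor was thus above its partner kinase in every NAE 18:3 library and below it in every DMSO library, a 7.81-fold difference in the ratio. The BIK1 to BAK1 ratio was 1.95, 1.81 and 1.92 after NAE 18:3, against 0.391, 0.367 and 0.443 after DMSO, a 4.74-fold difference, and BIK1 too stood on opposite sides of its partner in the 2 groups.

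The exact two-sided permutation test gave p = 0.1 for each of these 2 ratios, which is the smallest value that 3 against 3 libraries allow, and 0.15 after Benjamini-Hochberg adjustment over the 3 ratios. The EFR to FLS2 ratio was 0.35, 0.451 and 0.396 after NAE 18:3, against 0.397, 0.457 and 0.478 after DMSO. These values overlapped (exact permutation p = 0.2, also 0.2 after adjustment). The mean log2 ratio of EFR to FLS2 was -1.33 ± 0.18 after NAE 18:3 and -1.18 ± 0.14 after DMSO (SD, n = 3 each), so a difference in the balance of the bacterial receptors was not detectable here.

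**Figure D3:**
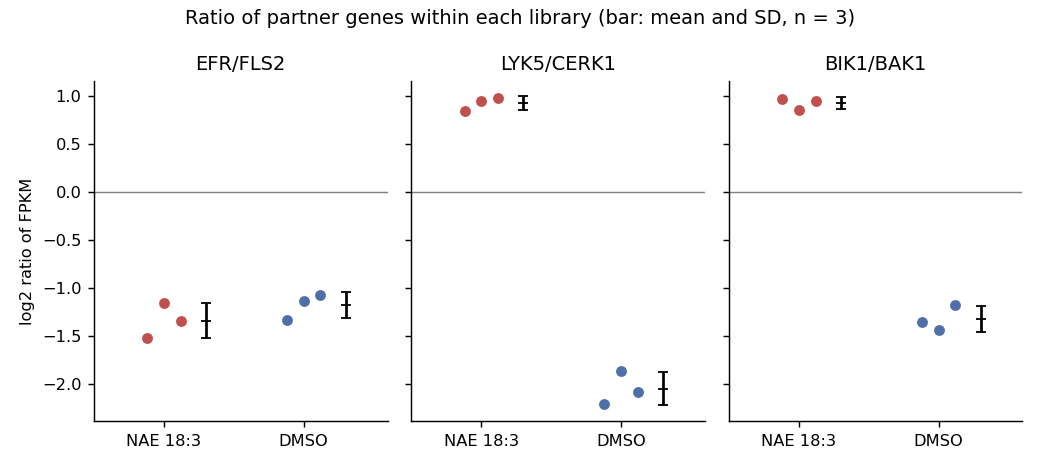
Log2 ratio of FPKM within each library (vertical axis) for partner genes (LYK5 to CERK1, BIK1 to BAK1) and for the bacterial receptors EFR and FLS2. NAE 18:3 is left and DMSO right in each panel, with points for libraries and bars for the mean and SD (n = 3). The LYK5 to CERK1 and BIK1 to BAK1 ratios lie above 0 in every NAE 18:3 library and below 0 in every DMSO library, while the EFR to FLS2 ratios overlap.

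The table splits some loci into assembled transcripts. FLS2, PEPR2, LYK5, SOBIR1, both BIR1 loci and BIK1 had 1 transcript each, EFR had 4, and CERK1 and BAK1 had 3. The first CERK1 transcript held 77.6%, 78.9% and 78.7% of the locus FPKM after NAE 18:3, against 43.3%, 68.4% and 72.2% after DMSO. Its share was higher in every NAE 18:3 library, but the lowest DMSO share came from the DMSO library of the least estimated relative depth. Without that library the gap was between 72.2% and 77.6%. For BAK1, the transcript AT4G33430.1 held 99.6% to 100% of the locus after NAE 18:3 and 82.2%, 98.7% and 98.1% after DMSO, with the low value in that same DMSO library. In EFR, 30.0% to 34.9% of the locus after NAE 18:3 and 27.4% to 35.3% after DMSO fell on a transcript with no TAIR gene, so that part of its level is assigned by the assembly alone.

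**Figure D4:**
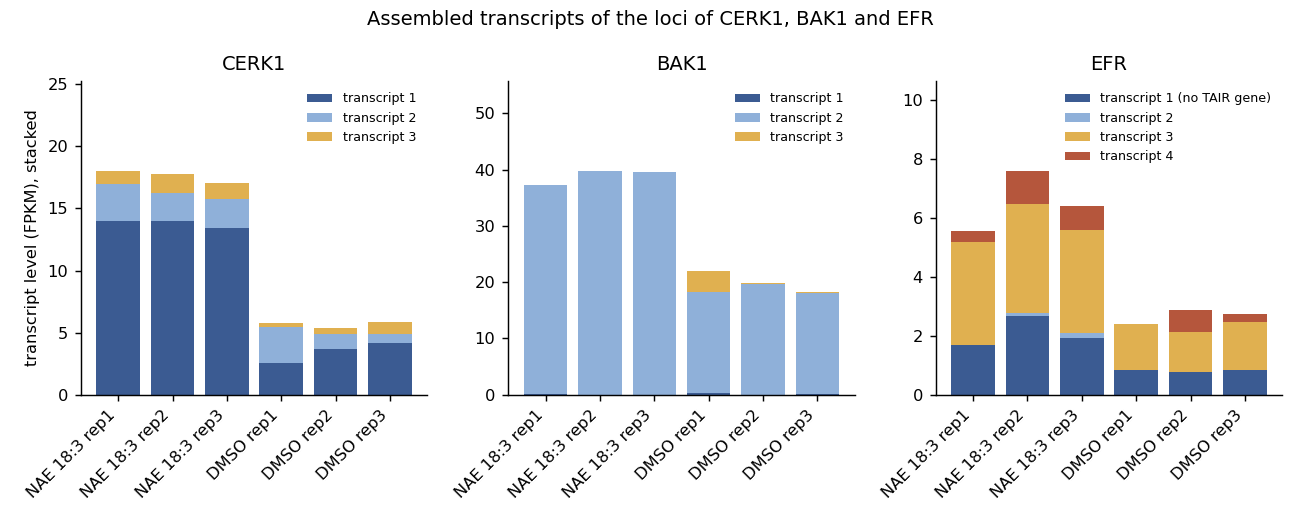
Level in FPKM of each assembled transcript of CERK1, BAK1 and EFR, stacked to the locus level (vertical axis, from 0) in each library (horizontal axis, NAE 18:3 libraries left of DMSO libraries), with colours for transcripts. The first CERK1 transcript makes up 43.3% and the main BAK1 transcript 82.2% of the first DMSO library's bar, the lowest share of each, and a transcript with no TAIR gene forms the base of each EFR bar.

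Other genes overlap some of these receptors in the TAIR10.1 annotation, all of them on the opposite strand. AT5G46340, which overlaps FLS2, had 12.4, 12.3 and 12.5 FPKM after NAE 18:3, against 7.16, 8.07 and 7.37 FPKM after DMSO. AT4G33420, which overlaps BAK1, had 30.1, 32.0 and 29.2 FPKM after NAE 18:3, against 7.23, 9.51 and 8.21 FPKM after DMSO. Both overlapping genes were higher after NAE 18:3, as FLS2 and BAK1 were, and their part in the values of FLS2 and BAK1 was not tested. AT1G17760, which overlaps PEPR2, had 6.76 to 8.25 FPKM after NAE 18:3 and 7.97 to 8.11 FPKM after DMSO. LYK5, CERK1, BIR1 and BIK1 had no annotated overlapping gene.

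Markers of plant parts moved with the same comparison. All 6 shoot markers, genes of photosynthesis and the leaf surface, were called higher, and their summed level was 73282 to 78168 FPKM after NAE 18:3, against 33258 to 34513 FPKM after DMSO. Of 10 root markers 9 were tested, 8 were called lower and 0 higher, SCR was not called, EXPA7 met the level filter through DMSO alone, and their summed level was 1176 to 1205 FPKM after NAE 18:3, against 2808 to 2898 FPKM after DMSO. PYK10 alone made up most of the root sum, with means of 1140 FPKM after NAE 18:3 and 2750 FPKM after DMSO. LHCB1.3 (26500 and 9920 FPKM) and RBCS1A (30100 and 20300 FPKM) made up most of the shoot sum. After quantile normalization 4 of the 6 shoot markers were called higher, while LHCB1.3 and RBCS1A each had a log2 change of 0.00. No marker of either list was at 0 in all 6 libraries. The part of the shoot and root balance in the levels of the receptor and kinase genes was not tested.

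Genes of the same pathway were drawn from 6 further lists, whose genes were picked for their known roles with earlier results of these data known. The counts of each list stand beside 44.1% of all tested loci called higher and 39.2% called lower. Among other pattern receptors, 8 of 10 loci were tested, with 5 called higher, 3 called lower and a median log2 change of 1.03. MIK2, a receptor of plant SCOOP peptides, had 158 ± 5.37 FPKM after NAE 18:3 and 19.3 ± 0.962 FPKM after DMSO, a log2 change of 2.97 (SD, n = 3 each, limma adjusted p = 1.4e-10). LORE, which senses bacterial medium-chain hydroxy fatty acids, lay on a locus joined with its neighbours AT1G61360 and AT1G61370 and had a log2 change of 2.33 (limma adjusted p = 2.7e-09). LYM1, a LysM protein that binds bacterial peptidoglycan, fell to 15.2 ± 0.555 FPKM after NAE 18:3, against 34.8 ± 3.08 FPKM after DMSO (SD, n = 3 each), a log2 change of -1.15 (limma adjusted p = 4.1e-07). The locus of DORN1, the receptor of extracellular ATP, joined with AT5G60310, had a log2 change of -0.74 (limma adjusted p = 3.2e-06).

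Within the LysM family the members therefore did not all move one way. LYK5 and CERK1 rose, as did LYK4 (2.47), a further chitin co-receptor, and LYM2 (1.5), a chitin-binding protein of plasmodesmata, in log2 change. LYM1 (-1.15) and LYM3 (-0.82), which act together in peptidoglycan sensing with CERK1, fell. LYK4, LYM2 and LYM3 were singled out after their values were seen.

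Of 9 loci of co-receptors and scaffolds, 8 were tested, 7 were called higher and 1 lower, with a median log2 change of 1.11. After upper-quartile scaling 6 were called higher and 2 lower. FER, a receptor kinase that scaffolds FLS2 with BAK1, had 186 ± 7 FPKM after NAE 18:3 and 57.4 ± 2.15 FPKM after DMSO (SD, n = 3 each), a log2 change of 1.68 (limma adjusted p = 1.6e-09). LLG1, the membrane-anchored partner of FER, had a log2 change of 1.12 (limma adjusted p = 4.4e-08). SERK1, the close relative of BAK1 with roles in development, fell, with 4.41 ± 0.384 FPKM after NAE 18:3 and 7.12 ± 0.753 FPKM after DMSO (SD, n = 3 each) and a log2 change of -0.58 (limma adjusted p = 0.00031). Among the relatives of BAK1, SERK4 and SERK5 shared a joined locus with a log2 change of 1.09, and SERK2 had 0.18 (limma adjusted p = 0.015). The call of SERK2 turned with the scaling, to lower at -0.15 after upper-quartile scaling (limma adjusted p = 0.035) and to not called at -0.02 after quantile normalization (limma adjusted p = 0.73). These relatives were singled out after their values were seen.

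All 11 tested loci of other cytoplasmic kinases, of the families of BIK1 and BSK1, were called higher, with a median log2 change of 1.23 and a range of 0.83 to 3.12. They include 2 loci of PCRK1, of which the weaker, at 1.64 FPKM after NAE 18:3 and 0.456 FPKM after DMSO, met the level filter through NAE 18:3 alone. RIPK, a relative of BIK1 that also phosphorylates RBOHD, had 74.7 ± 2.11 FPKM after NAE 18:3 and 7.74 ± 0.458 FPKM after DMSO (SD, n = 3 each). Its log2 change of 3.12 (limma adjusted p = 1.8e-10) stood beside the 3.05 of BIK1. BSK1, a partner of FLS2, had a log2 change of 1.23 (limma adjusted p = 2.7e-08). PBL1, the closest relative of BIK1 and chosen after its values were seen, had 31.5 ± 0.278 FPKM after NAE 18:3 and 10.2 ± 1.16 FPKM after DMSO (SD, n = 3 each), a log2 change of 1.54.

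All 10 tested loci of negative regulators were called higher too, with a median log2 change of 1.00. PUB24, at 7.21 FPKM after NAE 18:3 and 0.372 FPKM after DMSO, met the level filter through NAE 18:3 alone. PUB22, a ubiquitin ligase that dampens pattern signalling, had 28.7 ± 0.795 FPKM after NAE 18:3 and 4.65 ± 0.489 FPKM after DMSO (SD, n = 3 each), a log2 change of 2.40 (limma adjusted p = 4.9e-09). CPK28, a calcium-dependent kinase that promotes turnover of BIK1, had 34.2 ± 1 FPKM after NAE 18:3 and 10.5 ± 0.298 FPKM after DMSO (SD, n = 3 each), a log2 change of 1.61 (limma adjusted p = 4e-09). PUB12 and PUB13, ligases that target FLS2 and were chosen after their values were seen, had log2 changes of 0.86 and 0.83. The tested cytoplasmic kinases and the tested negative regulators thus all lay on the same side of 0. For PUB24 and the weaker PCRK1 locus that side was fixed by the level filter.

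The genes of the Pep precursors did not share a direction. Of 6, 5 were tested, 1 was called higher, 2 lower and 2 were not called, with a median log2 change of -0.10. The count called higher was 2 after quantile normalization, with the second DMSO library left out and with a replicate block, and with a filter of 5 FPKM the 1 locus tested was called lower. PROPEP5 met the level filter through NAE 18:3 alone. PROPEP5 had 2.82 ± 0.0965 FPKM after NAE 18:3 and 0.974 ± 0.285 FPKM after DMSO (SD, n = 3 each), a log2 change of 0.96 (limma adjusted p = 9.5e-05). PROPEP4 had 2.49 ± 0.716 FPKM after NAE 18:3 and 15 ± 0.876 FPKM after DMSO, a log2 change of -2.22 (SD, n = 3 each, limma adjusted p = 4.9e-07). PROPEP6 had a log2 change of -1.04 (limma adjusted p = 0.00012).

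Of 9 genes used as early readouts of pattern signalling, 6 were tested and all 6 were called higher, with a median log2 change of 2.62. The filter bears on this count: NHL10, at 2.92 FPKM after NAE 18:3 and 0.717 FPKM after DMSO, met it through NAE 18:3 alone, and without a filter 7 of the 9 were called higher and 1 lower. WRKY33, a transcription factor of defence, had 154 ± 3.65 FPKM after NAE 18:3 and 3.15 ± 0.442 FPKM after DMSO (SD, n = 3 each), a log2 change of 5.23 (limma adjusted p = 1e-10). PHI-1, a gene induced early by flagellin, had a log2 change of 4.44 (limma adjusted p = 1.3e-10). RBOHD, the oxidase that BIK1 phosphorylates, and CYP81F2, an enzyme of indole glucosinolate synthesis, had log2 changes of 2.36 and 2.89. FRK1, FOX1 and PAD3 lay under the level filter. FRK1, a widely used reporter of flagellin signalling, had 0.149 ± 0.0262 FPKM after NAE 18:3 and 0.0867 ± 0.0418 FPKM after DMSO, and PAD3, an enzyme of camalexin synthesis, had 0.114 ± 0.0588 FPKM after NAE 18:3 and 1.17 ± 0.159 FPKM after DMSO (SD, n = 3 each). RBOHD, CYP81F2, FRK1 and PAD3 were singled out after their values were seen.

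**Figure D5:**
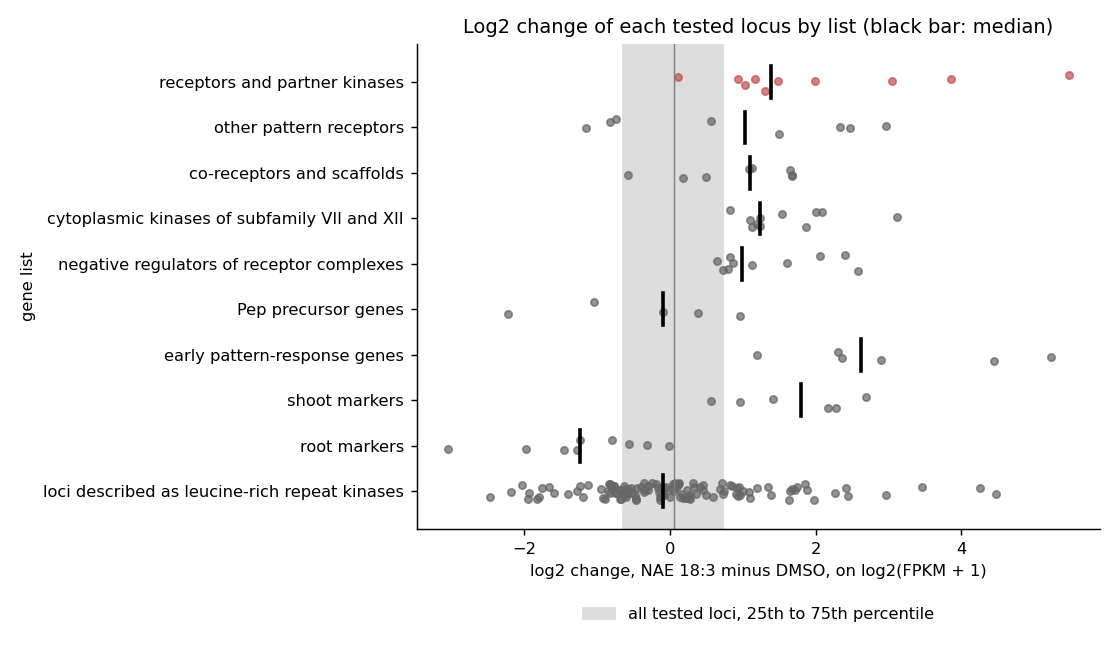
Log2 change of each tested locus (horizontal axis, NAE 18:3 minus DMSO on log2(FPKM + 1)) by gene list, with a black bar for the median of each list and a grey band for the 25th to 75th percentile of all tested loci, -0.64 to 0.73. The receptor and partner kinase loci have a median of 1.39, the cytoplasmic kinases lie wholly above 0, and the Pep precursor genes and the loci described as leucine-rich repeat kinases lie on both sides of it.

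FLS2, EFR, PEPR2, BAK1, SOBIR1 and BIR1 belong to the large class of receptor kinases with leucine-rich repeats outside the cell, and the rest of that class gives a measure of what is common to it. A rule set after the values were seen took the other loci that the table describes as leucine-rich repeat kinases. Of 180 such loci, 123 were tested, with a median log2 change of -0.09. Of these, 48 (39%) were called higher and 53 (43.1%) lower, beside 44.1% and 39.2% of all tested loci. After upper-quartile scaling 35 (28.5%) were called higher and 73 (59.3%) lower, beside 32.2% and 52.2%, with a median of -0.36. The class spanned log2 changes of -2.47 to 4.47. That range holds FLS2, EFR, PEPR2, BAK1 and both BIR1 loci, but not the fitted 5.48 of SOBIR1, whose sum with the next locus had 1.61. On the FPKM as deposited, 20 of the 123 loci were higher by at least 2-fold, beside 18.4% of all tested loci.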

How the data were processed

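Messenger RNA of whole seedlings was sequenced from TruSeq libraries. Per the submitters' processing notes, the authors ran TopHat, Cufflinks and Cuffdiff with TAIR9; versions and settings are not given in the sources used here. The deposited FPKM values were used per locus, through columns matched to libraries by their descriptions, and 4 columns of merged values were left out. Whole reads could not be recovered from the FPKM, so no count test was run and the counting error is unknown.

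Log2(FPKM + 1) values of loci averaging 1 FPKM or more were modelled in limma 3.58.1 (R 4.3.3), with treatment as the only term and a variance trend, and p-values were adjusted by Benjamini-Hochberg over all 18194 loci. Ratios between pairs of genes were compared by an exact permutation test. The procedure was tested on simulated data. Alternatives covered pseudocount, filter, scaling, trend, summing per gene, a replicate block and leaving out each library. Symbols, strands and overlaps came from the TAIR10.1 annotation, and no coordinates or sequences are given because the builds differ.

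The members and lists were chosen with earlier results of these data known. Each list supplied at most 2 called genes per direction, taken by adjusted p, beside the 4 loci closest in profile to the member with the largest rise. Other genes are marked as chosen after their values were seen.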

Additional observations from a re-analysis of the deposited data

How the results depend on the processing

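Among the 10 loci, 9 were called higher and 0 lower with every library left out in turn, with a pseudocount of 0.1, with no level filter, without the variance trend and after upper-quartile scaling. Of all tested loci, 7673 to 7982 were called higher and 6796 to 7033 lower with 1 library left out. The counts were 7989 and 7101 of 18194 with a pseudocount of 0.1, and 7991 and 7093 without the variance trend. With no filter they were 8465 and 8375 of 24155. After quantile normalization all 10 receptor and kinase loci were called higher. PEPR2 accounts for this: its log2 change reversed to -0.08 after upper-quartile scaling (limma adjusted p = 0.6) and passed the threshold at 0.46 after quantile normalization (limma adjusted p = 0.0094), and with 1 library left out it ranged from 0.04 to 0.19; the cause was not tested. With a filter of 5 FPKM, 8 loci were tested and 8 called higher, as EFR and PEPR2 are below it. Of all 13495 loci tested under that filter, 6893 were called higher and 4809 lower. Upper-quartile scaling moved the median of all other tested loci to -0.25, against 0.06, and turned the split of all tested loci from 8018 higher and 7125 lower to 5857 higher and 9497 lower; the median of the 10 loci was then 1.08, and 5 of them were higher by at least 2-fold, against 8. Chosen after seeing the data, leaving out SOBIR1 and the second BIR1 locus gave 7 of 8 called higher. Adding opposite-strand loci to SOBIR1 and BIR1, also chosen after seeing the data, gave 8 of 9, beside 8017 of 18192 tested loci. SOBIR1 was then at 1.61 and BIR1 at 1.70. The replicate numbers did not pair the libraries (correlations of same-numbered deviations of -0.01, -0.01 and 0.02). With a replicate block 9 of the 10 loci were called higher and 0 lower, beside 7951 higher and 7061 lower of all 18194 tested loci. PEPR2 then kept a log2 change of 0.11 (limma adjusted p = 0.45). The absolute depth is unknown, so how far it limits the low values, such as PEPR2 in both groups and LYK5 after DMSO, cannot be given.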

Other observations

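On the log2(FPKM + 1) scale, the 4 tested loci whose profile over the 6 libraries was closest to that of SOBIR1, the gene with the largest fitted log2 change, were SEN1, MIOX4, ACBP3 and DIN10, at distances of 0.08 to 0.14 among 18184 loci compared on centred log2(FPKM + 1) values. ACBP3, an acyl-CoA-binding protein, had 144 ± 0.316 FPKM after NAE 18:3 and 2.37 ± 0.102 FPKM after DMSO (SD, n = 3 each). As SOBIR1 is listed at 0 in DMSO, the pseudocount of 1 sets both its place as the largest change and which loci lie closest to it. For LYK5, chosen after the values were seen, the closest loci were MAKR6, CRK3, AT3G48390 and AT1G55960, at distances of 0.05 to 0.11. CRK3, a cysteine-rich receptor-like kinase, had 67.4 ± 1.02 FPKM after NAE 18:3 and 3.63 ± 0.152 FPKM after DMSO (SD, n = 3 each). All of these profiles are measured over 2 groups of 3 libraries, so closeness here records a rise of like size.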
